A study of Homo sapiens with 3 samples.

Results

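Immediate early genes are transcribed within minutes of a stimulus, without new protein synthesis, and their transcripts are short-lived. The 10 genes described here were chosen by symbol, FOS, FOSB, JUN, JUNB, EGR1, KLF6, IER2, IER3, ZFP36 and DUSP1, and each symbol matched 1 of the 33538 rows of the count tables. FOS, FOSB, JUN and JUNB encode subunits of the AP-1 transcription factor, in which a FOS protein pairs with a JUN protein. EGR1 and KLF6 encode zinc-finger transcription factors. IER2 and IER3 were named for their immediate early response, and IER3 also limits cell death. ZFP36 and DUSP1 act as brakes, ZFP36 by binding AU-rich elements and hastening mRNA decay and DUSP1 by dephosphorylating MAP kinases. In the intestinal epithelium these genes respond to growth factors, microbial products and injury, and the release of cells by enzymes is also known to raise them.

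The cells came from co-cultures of Caco-2 and HT29, both human colorectal carcinoma lines, seeded together in the apical chamber of Transwells with Caco-2 in large excess. Both control Transwells (control 1 and control 2) were left untreated until harvest on day 23. The treated Transwell (LPS 1) received 1 ng/ml lipopolysaccharide (LPS) of E. coli O111:B4 on day 22 and was harvested 24 h later. All cells were released with trypsin and thawed from storage, with dead cells removed where viability was low, before 10x Genomics 3' single-cell RNA-seq, so levels in the undisturbed layer and any effect of release or storage cannot be told apart. The model has no immune or stromal cells, and LPS was given to 1 Transwell only.

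After filters, 4633 cells of control 1, 4989 of control 2 and 4850 of LPS 1 were kept, with medians of 5442, 4101 and 3570 unique molecular identifiers (UMIs) per cell. Pairs of libraries shared 9 to 11 barcodes. The 10 genes held 75825, 60938 and 47209 UMIs in control 1, control 2 and LPS 1, which was 0.254%, 0.250% and 0.233% of all UMIs. At least 1 of them was detected in 99.5%, 98.7% and 98.2% of the cells. Cells were assigned to a line by the UMIs of 12 Caco-2 and 16 HT29 markers, none of them an immediate early gene, which gave 3793, 3651 and 3589 Caco-2-line cells and 553, 751 and 620 HT29-line cells. FGB and TCN1 were held out of these markers to check the split. The Caco-2 gene FGB was at 16.6, 19.1 and 17.5 CPM (the UMIs of a gene over all UMIs of the same cells, on the usual CPM scale) in Caco-2-line cells and at 0.299, 0 and 0 CPM in HT29-line cells. The HT29 gene TCN1 was at 98.0, 39.6 and 30.9 CPM in HT29-line cells and at 1.86, 0.795 and 0.768 CPM in Caco-2-line cells. Both lines were sequenced to like depths, with median UMIs of 5528, 4312 and 3711 in Caco-2-line cells and 5385, 3940 and 3790 in HT29-line cells.

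The upstream sequences of 5 of the genes are shown. These 5 held a match to the elements named below in the 150 bases before the start, and JUNB, KLF6, IER2 and ZFP36 held none there. The 5 differ between the lines in opposite directions, as described further on. FOS and EGR1 stood higher in Caco-2-line cells, and FOSB, JUN and DUSP1 in HT29-line cells. Each run gives the 150 bases before the RefSeq transcript start, 5′ to 3′ on the gene's strand, in GRCh38.p14. Capitals mark matches to the CArG box (the serum response element core, by its usual consensus), the cAMP response element TGACGTCA, its shorter form TGACGT, and TGACATCA, searched on both strands.
FOS, chr14:75278678-75278827, plus strand: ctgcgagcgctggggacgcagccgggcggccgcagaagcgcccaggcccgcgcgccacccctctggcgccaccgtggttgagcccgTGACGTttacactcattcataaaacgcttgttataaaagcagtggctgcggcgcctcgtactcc
FOSB, chr19:45467846-45467995, plus strand: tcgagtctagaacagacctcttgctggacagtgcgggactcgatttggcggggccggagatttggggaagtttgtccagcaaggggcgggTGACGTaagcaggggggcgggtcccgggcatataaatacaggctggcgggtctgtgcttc
EGR1, chr5:138465329-138465478, plus strand: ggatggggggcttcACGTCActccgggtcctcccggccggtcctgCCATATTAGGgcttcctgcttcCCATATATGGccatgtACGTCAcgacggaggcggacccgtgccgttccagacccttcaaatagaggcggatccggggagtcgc
JUN, chr1:58784048-58784197, minus strand: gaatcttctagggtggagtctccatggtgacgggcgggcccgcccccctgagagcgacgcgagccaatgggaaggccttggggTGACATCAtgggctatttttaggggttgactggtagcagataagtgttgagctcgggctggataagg
DUSP1, chr5:172771196-172771345, minus strand: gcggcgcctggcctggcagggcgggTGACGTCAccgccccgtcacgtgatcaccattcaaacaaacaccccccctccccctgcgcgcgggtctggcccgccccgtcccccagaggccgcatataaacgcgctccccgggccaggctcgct

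Over the 250 bases before the start, TGACGT was present in 4 of the 9 members that the table of promoters holds (FOS, FOSB, EGR1 and DUSP1) and in 7.10% of all 35116 promoters in it. The full TGACGTCA was present in DUSP1 alone of the 9, where it holds 2 overlapping copies of the shorter form, and in 1.65% of all promoters. EGR1 alone had CArG boxes within these 250 bases, 2 of them, against 1.16% of all promoters with at least 1. Sites farther upstream were not searched, so a CArG box of another member there would be missed. The letters TGACATCA, added to the search after the JUN sequence was seen, were present in JUN and KLF6 and in 2.38% of all promoters. TGACTCA or TGAGTCA, the AP-1 site, was present in none of the 9 and in 4.20% of all promoters. The members with TGACGT fell on both sides of the line difference, with FOS and EGR1 higher in Caco-2-line cells and FOSB and DUSP1 higher in HT29-line cells.

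The 2 lines held different mixtures of these transcripts. FOS gave the most UMIs of the 10 in both lines in every library, with 25.8% ± 1.98 (SD, n = 3 libraries) of their UMIs in Caco-2-line cells and 14.2% ± 0.54 in HT29-line cells. In Caco-2-line cells IER2 came next with 19.1% ± 0.21, then EGR1 with 12.3% ± 2.24, and the last places went to IER3 with 3.13% ± 0.62 and ZFP36 with 2.29% ± 0.13. In HT29-line cells JUN came next after FOS with 13.4% ± 0.49, followed closely by FOSB with 11.8% ± 0.87, KLF6 with 11.2% ± 1.53, IER3 with 11.2% ± 1.68 and IER2 with 10.6% ± 0.56. Those 4 changed places between libraries and their spreads overlapped, whereas in Caco-2-line cells every one of the 10 kept its rank in all 3 libraries. These are orders of UMIs from transcript 3' ends and were not divided by length. The 10 together stood at 2468, 2405 and 2231 CPM in Caco-2-line cells of control 1, control 2 and LPS 1 and at 3173, 3066 and 2802 CPM in HT29-line cells, 1.27 ± 0.015 times higher (SD of the ratio, n = 3 libraries).

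All 10 genes differed between the lines at an adjusted p under 0.05, 7 higher in HT29-line cells and 3 higher in Caco-2-line cells (edgeR quasi-likelihood test on UMIs summed per library and line, library as a block, 13825 genes tested). A call was common in this comparison, since 71.5% of the genes tested passed, 34.1% higher and 37.4% lower in HT29-line cells. In 10 of 10 members the 3 HT29-line values did not overlap the 3 Caco-2-line values, which also held for 72.5% of the genes tested. Being different between the lines was therefore the usual state of a gene here, and the sizes and directions below describe the members. The median log2 difference, HT29-line minus Caco-2-line, was 0.62 over the 10 and -0.08 over all genes tested. A change of at least 1 on the log2 scale was reached by 2 members, IER3 and ZFP36, both higher in HT29-line cells, and by 39.9% of the genes tested, 18.0% higher and 21.9% lower. The cells also differed in mitochondrial share, with medians of 3.75%, 4.35% and 4.66% in Caco-2-line cells and 2.75%, 2.66% and 3.54% in HT29-line cells, and its part in these differences was not tested.

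**Figure D1:**
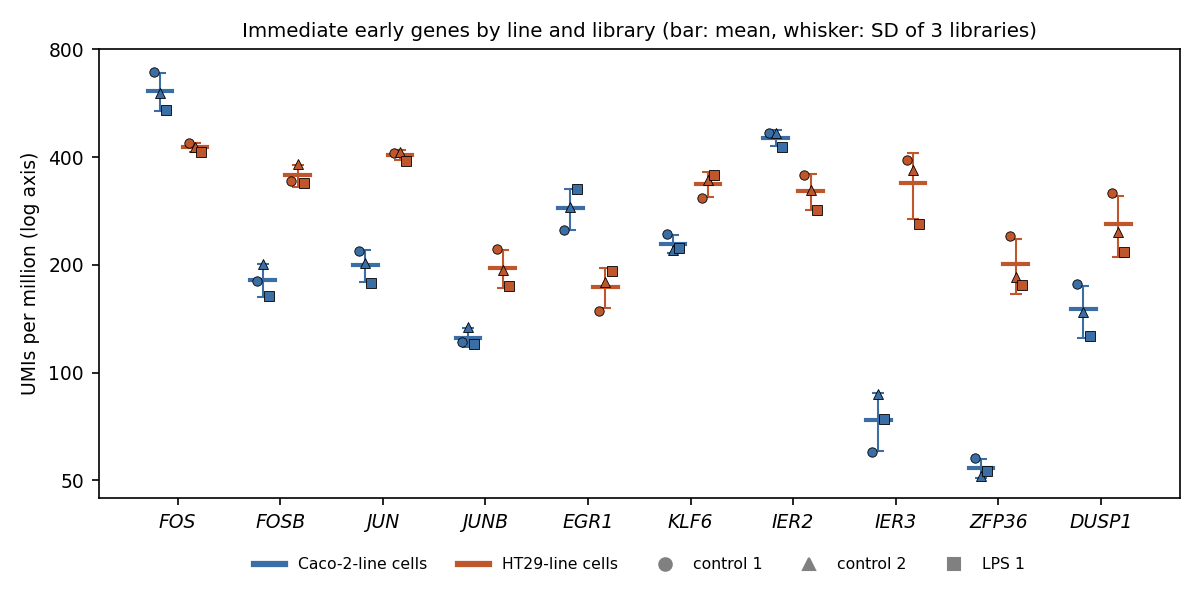
Level of each gene in CPM (log axis) in Caco-2-line (blue) and HT29-line (orange) cells, with 1 marker per library, the mean as a bar and the SD of the 3 libraries as a whisker. FOS, EGR1 and IER2 lie higher in Caco-2-line cells, the other 7 genes lie higher in HT29-line cells, and the widest gaps are those of IER3 and ZFP36.

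Among the AP-1 genes, FOS went one way and the other members went the opposite way. FOS was at 692, 604 and 541 CPM in Caco-2-line cells of control 1, control 2 and LPS 1 and at 437, 426 and 414 CPM in HT29-line cells. It was lower in HT29-line cells by a log2 difference of -0.62 (SE 0.077, adjusted p = 1.401e-06, edgeR). FOSB, its close relative, was at 180, 202 and 164 CPM in Caco-2-line cells and at 344, 383 and 339 CPM in HT29-line cells, a log2 difference of 0.87 (SE 0.077, adjusted p = 1.601e-08, edgeR). The values of the lines did not overlap for either gene, and the order was opposite. JUN was at 219, 203 and 178 CPM in Caco-2-line cells and at 410, 414 and 389 CPM in HT29-line cells, a log2 difference of 0.92 (SE 0.079, adjusted p = 1.052e-08, edgeR). JUNB was at 122, 134 and 120 CPM in Caco-2-line cells and at 222, 193 and 174 CPM in HT29-line cells, a log2 difference of 0.55 (SE 0.086, adjusted p = 2.015e-05, edgeR).

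EGR1 and KLF6, the zinc-finger factors, also went opposite ways. EGR1 was at 250, 290 and 325 CPM in Caco-2-line cells and at 149, 180 and 192 CPM in HT29-line cells, with a log2 difference of -0.83 (SE 0.078, adjusted p = 3.742e-08, edgeR), the largest of the 3 members lower in HT29-line cells. Its HT29-line to Caco-2-line ratio was 0.595, 0.620 and 0.590 in the 3 libraries. KLF6 was at 244, 220 and 223 CPM in Caco-2-line cells and at 307, 346 and 356 CPM in HT29-line cells. Its log2 difference of 0.45 (SE 0.086, adjusted p = 0.0001432, edgeR) was the smallest of the 10.

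IER2 and IER3 differed in direction and in size. IER2 was at 468, 466 and 426 CPM in Caco-2-line cells and at 357, 324 and 284 CPM in HT29-line cells, a log2 difference of -0.60 (SE 0.074, adjusted p = 1.249e-06, edgeR). IER3 was at 60.1, 87.3 and 74.5 CPM in Caco-2-line cells and at 391, 367 and 260 CPM in HT29-line cells. Its log2 difference of 2.10 (SE 0.120, adjusted p = 3.871e-11, edgeR) was the largest of the 10, and the ratio of the CPM values ran from 6.51 in control 1 through 4.21 in control 2 to 3.49 in LPS 1. IER3 UMIs were found in 25.1%, 29.2% and 22.7% of Caco-2-line cells and in 71.1%, 66.6% and 53.2% of HT29-line cells. With every cell thinned to the minimum UMIs of control 1 these shares were 10.9%, 16.3% and 13.7% against 48.5%, 48.8% and 40.7%.

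Both brakes stood higher in HT29-line cells. ZFP36 was at 57.7, 51.5 and 53.1 CPM in Caco-2-line cells and at 241, 185 and 176 CPM in HT29-line cells, a log2 difference of 1.79 (SE 0.088, adjusted p = 5.093e-12, edgeR). Its UMIs were found in 29.0%, 22.1% and 19.6% of Caco-2-line cells and in 68.5%, 49.7% and 47.3% of HT29-line cells, or, thinned, in 12.9%, 10.9% and 11.6% against 42.7%, 33.3% and 31.7%. DUSP1 was at 176, 148 and 127 CPM in Caco-2-line cells and at 317, 248 and 218 CPM in HT29-line cells, a log2 difference of 0.69 (SE 0.077, adjusted p = 3.278e-07, edgeR). Cells with an HT29 marker share between 40% and 70% (139, 189 and 223 cells) had IER3 between the lines, at 166, 161 and 120 CPM. Their sum of the 10 genes, 2268, 2163 and 2189 CPM, lay below both lines in every library. Their FOS, at 433, 397 and 428 CPM, and KLF6, at 224, 175 and 225 CPM, lay below both lines in the controls.

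Related genes were counted in the same fit. Of 26 other immediate early genes, 14 were higher and 6 lower in HT29-line cells, with a median log2 difference of 0.38 against -0.08 over all genes. The largest were ARC (log2 difference 4.32, 2.89 to 60.8 CPM, Caco-2-line to HT29-line mean), TRIB1 (3.32, 17.9 to 190 CPM), CTGF (-2.24, 83.7 to 19.1 CPM) and KLF2 (2.08, 3.67 to 16.4 CPM). ARC is a synaptic immediate early gene, TRIB1 a pseudokinase scaffold, CTGF a matricellular protein and KLF2 a Kruppel-like factor. BTG2, an antiproliferative gene, and NR4A1, an orphan nuclear receptor, were lower in HT29-line cells like FOS and EGR1, by log2 differences of -1.30 and -0.59. Of 13 genes of MAP kinase output and feedback, 6 were higher and 4 lower (median 0.31). CCND1, a cyclin, was lower at -2.05, and the phosphatase DUSP4, the transcription factor ETV5 and the receptor EPHA2 were higher at 2.04, 1.81 and 1.78. Of 7 mRNA decay genes, 1 was higher and 5 lower (median -0.75). ZFP36L1, a paralog of ZFP36, was the higher one, at 0.66, and ZFP36L2, the other paralog, was lower at -0.75, so the family members did not share a direction. Both CNOT7, a deadenylase subunit, and DCP2, the decapping enzyme, were lower, at -1.13 and -1.08. Of 10 heat shock genes, 4 were higher and 4 lower (median -0.08), led by HSPB1 at 2.22, HSPH1 at 2.09 and HSPA1B at 1.58 among the higher and HSPD1 at -1.14 among the lower. Of 10 NF-kB targets, 6 were higher and 4 lower (median 0.85). The largest of these were the chemokines CXCL8 at 5.45, from 0.239 to 11.6 CPM, and CXCL1 at 2.48, the inhibitor of apoptosis BIRC3 at 1.93 and the chemokine CCL20 at -1.86. These counts stand beside the 71.5% of all genes that passed.

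With LPS for 24 h, none of the 10 genes passed an adjusted p of 0.05, in all cells or in either line. Over all kept cells, 23 of 16132 genes (0.143%) passed, 0.0682% higher and 0.0744% lower in LPS 1, and 1 of the 10 members, DUSP1, had an unadjusted p under 0.05, as did 837 of the 16132 genes. DUSP1 was at 194 and 164 CPM in the controls and at 141 CPM in LPS 1, a log2 difference of -0.43 (SE 0.159, unadjusted p = 0.01252, adjusted p = 0.905, edgeR). In all cells, 7 of the 10 were below both controls in LPS 1, 1 was above both and 2 were between. The same position below both controls was held by 23.6% of the genes tested, and that above both by 48.5%. The gene above both was EGR1, at 238 and 272 CPM in the controls and 308 CPM in LPS 1, a log2 difference of 0.20 (SE 0.154, adjusted p = 0.945, edgeR). The order of the libraries for FOS and DUSP1, highest in control 1 and lowest in LPS 1, was also the order of their median UMIs per cell. With cells thinned to the minimum UMIs of control 1 the order was the same, with means per cell of 1.56, 1.31 and 1.20 UMIs for FOS and 0.451, 0.388 and 0.324 UMIs for DUSP1 in control 1, control 2 and LPS 1. Cells below that minimum were left out, which retained 4633, 4534 and 4095 cells. The libraries thus lost unequal shares of shallow cells, and the part of this in the order was not tested. With 2 controls and 1 treated Transwell the fit has 1 residual degree of freedom, and the lone LPS library is assumed to vary like the controls.

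Within Caco-2-line cells, 1 of 14877 genes passed (0.00672%) and no member did. The lowest unadjusted p-values were those of DUSP1 (log2 difference -0.45, SE 0.190, unadjusted p = 0.03552), FOS (-0.35, SE 0.160, unadjusted p = 0.04639) and JUN (-0.34, SE 0.156, unadjusted p = 0.04985), each with an adjusted p of 0.995 in the edgeR fit. Within HT29-line cells, 4 genes passed (0.0269%) and again no member did. IER3 had the lowest unadjusted p there, at 391 and 367 CPM in the controls and 260 CPM in LPS 1, a log2 difference of -0.62 (SE 0.203, unadjusted p = 0.009943, adjusted p = 0.994, edgeR). In LPS 1, 6 members were below both controls and 1 above in Caco-2-line cells, positions held by 23.5% and 49.5% of the genes tested. In HT29-line cells 8 were below and 2 above, against 26.2% and 38.2% of the genes tested. In Caco-2-line cells the IER3 level of LPS 1, 74.5 CPM, lay between the controls. The difference of the LPS change between the lines was -0.57 for IER3 (SE 0.192, unadjusted p = 0.003260, adjusted p = 0.704, edgeR interaction with library as a block), and for that test 12 of 14877 genes passed (0.0807%; 0.0672% positive and 0.0134% negative), no member among them. With 1 control left out, this difference for IER3 was -0.8598 to -0.2782, values with no test. The HT29-line to Caco-2-line ratio of IER3 also differed between the untreated controls, at 6.51 in control 1 and 4.21 in control 2. The 2 sums of a library are not independent in these fits. That no member passed does not show that LPS left them alone.

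**Figure D2:**
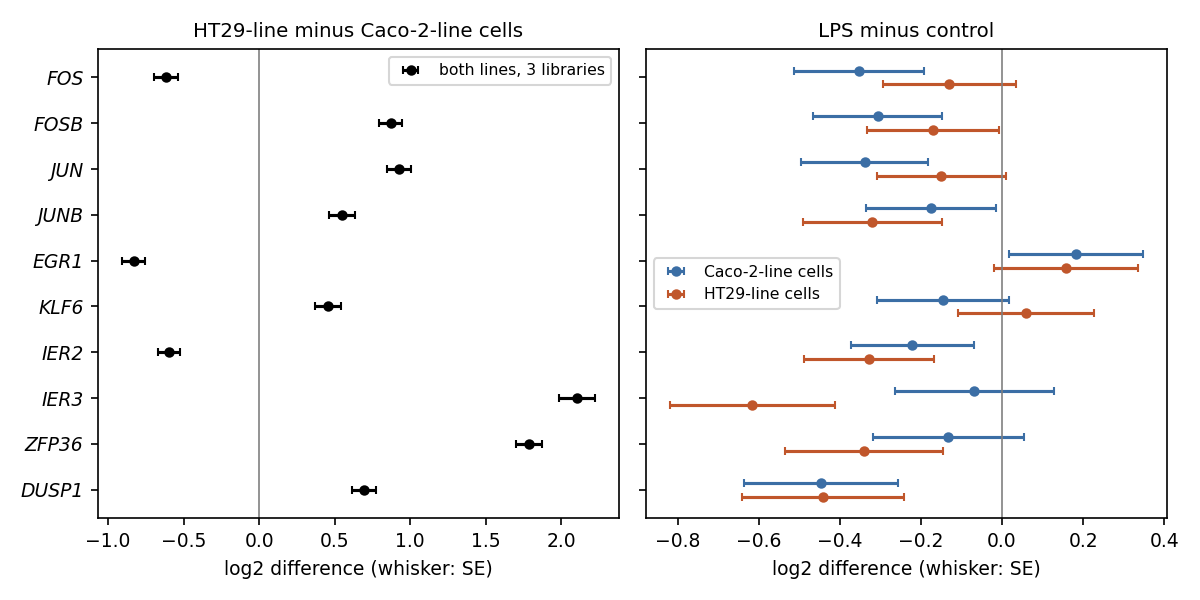
Fitted log2 differences of the 10 genes with their SE, between the lines (left) and between LPS and control within each line (right, Caco-2-line blue, HT29-line orange). On the left each gene lies several SE from 0, with IER3 at 2.10 and EGR1 at -0.83 as the extremes, and on the right no gene passed the test, with EGR1 above 0 in both lines and IER3 at -0.62 in HT29-line cells.

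The lists of related genes gave no call for LPS either. None of the 26 other immediate early genes, 13 MAP kinase, 7 mRNA decay, 10 heat shock or 10 NF-kB genes passed over all cells. Unadjusted p-values under 0.05 numbered 3, 1, 0, 0 and 4 in these lists in the edgeR fit, and 837 among all 16132 genes tested. The stress-induced factor ATF3 was at 33.3 CPM in the controls' mean and 22.5 CPM in LPS 1 (adjusted p = 0.606, edgeR), and CCL20 was at 14.9 and 8.43 CPM (adjusted p = 0.595, edgeR), neither of them a call. The LPS receptor TLR4 had 7, 2 and 1 UMIs in all kept cells of control 1, control 2 and LPS 1, and its co-receptor LY96 had 4, 1 and 2, too few to be tested. CD14, which hands LPS to that complex, was tested and was higher in HT29-line cells, at a mean of 16.0 CPM against 2.89 CPM in Caco-2-line cells (log2 difference 2.40, adjusted p = 1.567e-07, edgeR). Of the 5 genes in the LPS receptor list, 3 were tested for LPS over all cells and none passed.

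Cells were also clustered on integrated values of the 3 libraries with the 10 genes left out, which gave 13 clusters, and the levels of the members in them are given as descriptions. Cluster 2, undifferentiated HT29-like by its markers (SNCG, LCN2, ANXA1 and KLK10, 2355 cells), had the line pattern, with IER3 at 358, 358 and 243 CPM and ZFP36 at 211, 178 and 161 CPM. Cluster 3, enterocyte-like (APOA4, FABP2, 2018 cells), paired a high KLF6 of 351, 400 and 385 CPM with a low FOSB of 119, 159 and 116 CPM and a low IER3 of 26.0, 40.8 and 32.6 CPM. Cluster 4, led by the replication genes MCM10, ESCO2 and CLSPN (1397 cells), had the lowest mean KLF6 of the clusters, at 158, 126 and 116 CPM. The KLF6 values of the absorptive and the replicating cells, both mostly of the Caco-2 line, did not overlap.

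Small clusters set the upper end for single genes. Cluster 10, enteroendocrine-like (INSM1, PAX4, CHGA, 181 cells), had EGR1 at 642, 644 and 626 CPM, the highest of the clusters in its mean, and JUN at 579, 454 and 472 CPM, with IER3 at 26.9, 50.4 and 45.4 CPM. Cluster 9 (205 cells, led by SST, FCGBP, MUC2 and GCG and so holding both goblet and hormone genes) had JUN at 652, 470 and 541 CPM. At the other end, cluster 12, fetal gene expressing-like (PTN, XAGE2, ERVH48-1, 68 cells), had JUN at 57.3 and 19.1 CPM in the controls, the only libraries with at least 10 of its cells, and the lowest sum of the 10 genes, 1797 and 1446 CPM, while its FOS stood at 552 and 382 CPM. Cluster 12 held 0.453% of the cells of control 1 and 0.782% of control 2, so these levels, JUN above all, rest on few cells.

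Clusters 5 and 11 stay unnamed. Cluster 5 (644 cells, led by RIMS4 and ITGA5) had EGR1 at 495, 568 and 636 CPM and KLF6 at 504, 461 and 582 CPM. Cluster 11 (73 cells, with NEAT1, PADI1 and LUCAT1 among its leading genes) had FOSB at 1296, 2239 and 1209 CPM and KLF6 at 941, 1791 and 1093 CPM, in every library above their level in any other cluster, whereas its JUNB was at 83.6, 103 and 48.3 CPM. It held only 0.281%, 0.581% and 0.639% of the cells of control 1, control 2 and LPS 1. Its cells were shallow, with a median of 2260 UMIs, as were those of cluster 10 with 2573, and the part of depth in these levels was not tested. The line directions did not hold in every cluster. Cluster 5, Caco-2 by marker share, had a mean FOSB of 341 CPM, against 329 CPM in cluster 2 and 131 to 280 CPM in the other Caco-2 clusters. Clusters 9 and 11, HT29 by marker share like cluster 2, had mean EGR1 of 365 and 510 CPM, against 174 CPM in cluster 2.

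**Figure D3:**
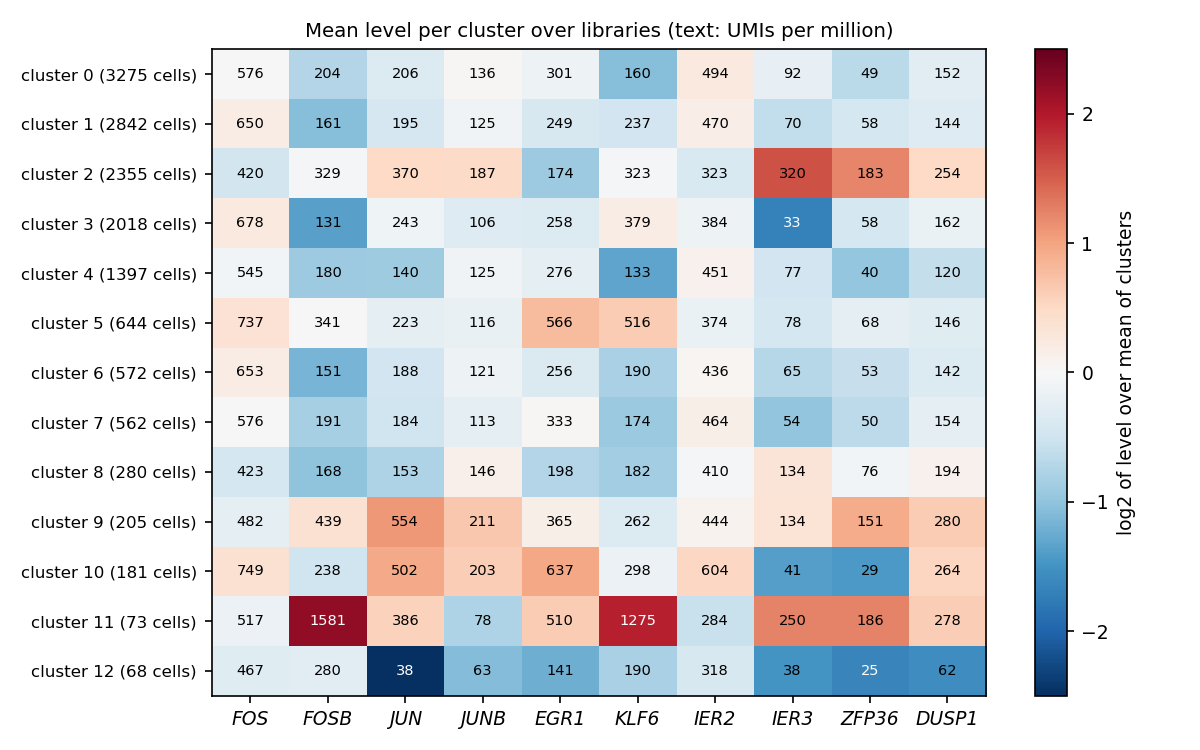
Mean level over libraries of each gene (columns) in each of the 13 clusters (rows), printed in CPM and coloured by the log2 of the level over the mean of the clusters. FOSB and KLF6 are highest in cluster 11, JUN is lowest in cluster 12, and IER3 is highest in cluster 2 and lowest in clusters 3, 10 and 12.

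Across cell cycle phases, called from S and G2/M marker genes, the sum of the 10 was higher in G1 than in G2/M in both lines and all libraries. In Caco-2-line cells it was 2734, 2640 and 2439 CPM in G1 and 2101, 2143 and 2023 CPM in G2/M. KLF6 in Caco-2-line cells was at 306, 294 and 288 CPM in G1 against 183, 159 and 164 CPM in G2/M, and FOSB was at 178, 204 and 164 CPM against 177, 194 and 170 CPM. IER3 went the other way in Caco-2-line cells, at 50.9, 74.9 and 67.6 CPM in G1 and 68.4, 102 and 85.3 CPM in G2/M. In HT29-line cells ZFP36 was at 253, 190 and 185 CPM in G1 and at 88.7, 114 and 73.7 CPM in G2/M, the latter from only 24, 35 and 22 cells. Within G1 alone the values of the lines did not overlap for any of the 10 genes. The share of all genes with no overlap in G1 was not computed, and over all phases it was 72.5%. The gap in G1 was narrow for KLF6, at 306, 294 and 288 CPM in Caco-2-line and 312, 354 and 366 CPM in HT29-line cells. EGR1 in G1 was at 273, 318 and 343 CPM in Caco-2-line and 150, 180 and 192 CPM in HT29-line cells. G2/M cells were also deeper, with median UMIs of 5852 against 3747 in Caco-2-line cells (medians over libraries). With Caco-2-line cells split by UMIs into 3 groups of like size, the sum of the 10 was 2966, 2842 and 2545 CPM in the shallowest and 2203, 2212 and 2111 CPM in the deepest. Depth and phase move together with these levels, and their parts were not tested.

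Over cells the members varied together only weakly. The highest correlation between 2 of them without thinning, averaged over 6 sets of cells (2 lines in 3 libraries), was that of FOS and EGR1, with a mean Pearson's r of 0.23 (0.15 to 0.28) on log-normalized values, and 0.13 after thinning to the same depth. FOS and FOSB followed with 0.21, JUN and KLF6 with 0.21 and FOSB and EGR1 with 0.21. After thinning these were 0.14, 0.11 and 0.16, so the order changed and FOSB and EGR1 came first. These points share a library and its depth, and correlations of this size in sparse counts are no finding of coupling. Among 5890 genes that are no member, with a UMI in at least 5% of the cells of every set, the 10 most like the mean of the members were BTG2 (mean r 0.23), NR4A1 (0.20), NEAT1 (0.20), CLDN4 (0.18), HES1 (0.17), MCL1 (0.17), ELF3 (0.17), ID1 (0.17), DUSP6 (0.16) and TRIB1 (0.16). After thinning, NEAT1 was at 0.16, CLDN4 and BTG2 at 0.15 and NR4A1 at 0.11, so this order changed too. Without thinning, the median over the 5890 genes was 0.02. Of the lists, HSPE1, HSPD1 and HSPA8 had the lowest values without thinning, at -0.09, -0.08 and -0.08.

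**Figure D4:**
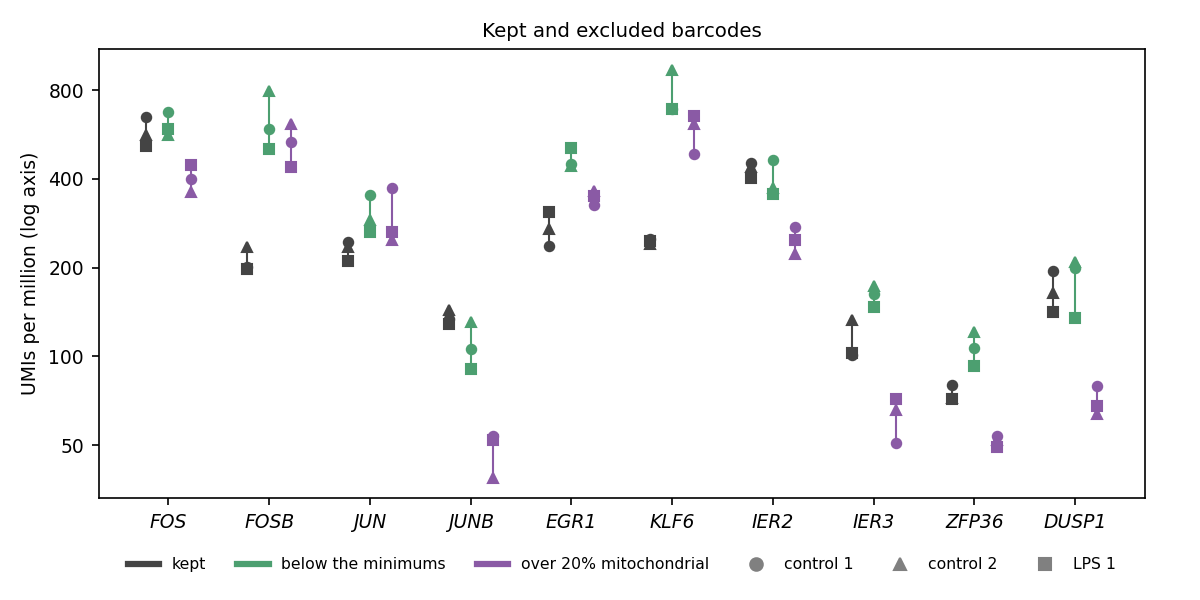
Level of each gene in CPM (log axis) in kept barcodes, in barcodes below the minimums of UMIs or genes, and in barcodes with over 20% mitochondrial UMIs, with 1 marker per library and a line over their range. FOSB and KLF6 lie well above their kept level in both excluded sets, and FOS, JUNB, IER2, IER3, ZFP36 and DUSP1 lie below theirs in the mitochondrial set. CPM counts mitochondrial UMIs in the total, which lowers the CPM of all other genes in that set.

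The barcodes that the filters removed held a different mixture. Below the minimums of depth were 631, 626 and 1054 barcodes with median UMIs of 1022, 896 and 873, and above the mitochondrial limit were 251 to 624 barcodes with medians of 38.9%, 43.2% and 34.8% mitochondrial UMIs. The mitochondrial barcodes had median UMIs of 1040, 848.5 and 943.5, so both sets were shallow. KLF6 was at 250, 241 and 247 CPM in kept cells, at 693, 940 and 690 CPM in the shallow barcodes and at 488, 612 and 652 CPM in the mitochondrial ones. FOSB was at 200, 236 and 198 CPM in kept cells, at 590, 793 and 504 CPM in the shallow barcodes and at 535, 614 and 439 CPM in the mitochondrial ones. Both genes stood above their level in either line in every library. JUNB was at 134, 143 and 129 CPM in kept cells and at 53.8, 38.7 and 51.9 CPM in the mitochondrial barcodes, and DUSP1 was at 194, 164 and 141 CPM in kept cells and at 79.1, 64.0 and 67.9 CPM in the mitochondrial barcodes. The 10 genes thus did not move as 1 group with barcode quality. Between kept and mitochondrial barcodes the values did not overlap for any of the 10 genes. The share of all genes with no overlap between these barcodes was not computed. CPM counts mitochondrial UMIs in the total, so a high mitochondrial share lowers the CPM of every other gene. Its part in the lower levels of the mitochondrial barcodes was not tested.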

How the data were processed

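The authors deposited raw UMI counts per gene and barcode for each of the 3 libraries, mapped to GRCh38 and counted with Cell Ranger (version 3.1.0 per the file headers), before cell filters. Cells were kept at a minimum of 2250 UMIs and 770 genes in control 1 and of 1500 UMIs and 700 genes in the other libraries, the values for LPS 1 being taken over from control 2, and at most 20% mitochondrial UMIs. The 6% of barcodes per library with the highest scrublet scores (scanpy 1.11.5) were removed as doublets. Library totals were 24185467 to 33893707 UMIs. A cell was put in the Caco-2 line when HT29 markers gave at most 40% of at least 10 marker UMIs, and in the HT29 line from 70%; these limits were set after the marker shares were seen. UMIs were summed per library and line and tested with edgeR 4.0.16 (TMM, filterByExpr, quasi-likelihood, Benjamini-Hochberg). DESeq2 1.42.0 and other filters were alternatives. Levels are CPM of kept UMIs, while fitted log2 differences use TMM. Clusters used Seurat 5.3.0 integration and Leiden clustering (resolution 0.5). All tests but that of LPS within HT29-line cells were run on simulated data. The spread there was set beforehand and not taken from these libraries, so the error rates in these data are not known from it. The controls are 2 Transwells, and the paper names a single passage of each line, so nothing shows them to be separate cultures. In the fits without a library block, p-values rest on the spread between these libraries. In the fits with it, they rest on how far the difference between the lines varied from library to library. Either spread may be technical. With so few libraries, edgeR also draws each gene's spread toward that of the other genes tested. A p-value or SE here is thus not that of the gene's own libraries alone. Named are the 10 members, up to 4 called genes per list and comparison with the largest change, and the 10 genes most like the members; BTG2, NR4A1, ZFP36L1, ATF3, TLR4, LY96, CD14 and the genes outside this rule were named after their values were seen. The members and lists were chosen with earlier results of these data known. Promoter sequences are from RefSeq (GRCh38.p14). Intervals and UMI limits cover counting error only.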

Additional observations from a re-analysis of the deposited data

How the results depend on the processing

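Between the lines, 10 of 10 members were called in the same direction under all 14 alternatives, leave-one-out included (10 to 10), and genes called ran from 9054 to 9364 with 1 library left out. The line fit without the replicate block called 9558 genes, against 9884 with it, and the 10 members in both. No member was called for LPS under any alternative that gave a test. Genes called for LPS over all cells were 7 with DESeq2, 48 without the filter on low counts, 6 with the minimums of control 1, 13 with every barcode, 11 with doublets kept and 0 with thinned cells (the main count was 23). In Caco-2-line cells they were 16 without the filter and 0 with those minimums, with lines from clusters and with thinned cells, and in HT29-line cells 41 without the filter, 7 with lines from clusters, 7 with line markers without AGR2 and SERPINA1 (an alternative chosen after seeing the data) and 15 with thinned cells. For the difference of the LPS change between the lines they were 0 with DESeq2, 6 without TMM, 19 with every barcode, 19 with doublets kept, 7 with lines from clusters, 3 with the reduced markers, 1 with thinned cells and 0 without the replicate block, against 12 with it. The causes were not tested.

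Signs turned only for uncalled values. KLF6 was 0.0091 without TMM over all cells, and in HT29-line cells -0.0280 to 0.1476 with 1 control left out. IER3 in Caco-2-line cells was 0.0174 without TMM and -0.2935 to 0.1986 with 1 control left out. In the difference of the LPS change between lines, EGR1 was 0.0146 with every barcode, 0.0002 with at most 10% mitochondrial UMIs, 0.0036 with doublets kept, 0.0626 with lines from clusters, 0.0005 with the reduced markers, 0.1156 with thinned cells and -0.0776 to 0.0292 with 1 control left out. DUSP1 was -0.0132 without TMM, -0.0094 with the minimums of control 1, -0.0211 with every barcode, -0.0455 with at most 10% mitochondrial UMIs, -0.0250 with doublets kept, -0.0921 with thinned cells and -0.0199 to 0.0303 with 1 control left out. IER2 was 0.0009 with lines from clusters. Leaving out a control leaves the LPS fits no residual degrees of freedom, so those are values with no test. No paired analysis was possible for LPS against control because nothing pairs the LPS library with either control. There is 1 LPS library, and the 3 libraries differ in depth.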

Other observations

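In HT29-line cells, FOSB was higher in cells with a higher mitochondrial share. With the cells split by that share into 3 groups of like size, it was at 246, 304 and 255 CPM in the lowest group of control 1, control 2 and LPS 1 and at 453, 476 and 424 CPM in the highest, with no overlap between these groups. KLF6 was at 249, 288 and 328 CPM in the lowest group and at 348, 400 and 374 CPM in the highest. IER3 went the other way, at 487, 394 and 287 CPM against 349, 349 and 234 CPM. In Caco-2-line cells FOSB was at 160, 172 and 138 CPM in the lowest group and at 195, 232 and 175 CPM in the highest. These are descriptions over cells of the same libraries, with no test.

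With cells thinned to the minimum UMIs of control 1, the variance over the mean of the UMIs (the Fano factor) of IER3 in HT29-line cells was 2.06 on average over the libraries (1.54 to 2.72). That of FOSB was 1.77, from 2.55 in control 1, 1.36 in control 2 and 1.41 in LPS 1. The median over genes was 1.04 to 1.05, and these genes were not matched to the members in mean level. ZFP36, which also differs strongly between the lines, was at 1.08 (1.03 to 1.14) in HT29-line cells, near that median.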
